A study of Mus musculus with 16 samples.

Results

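The T cell receptor (TCR) complex and its co-receptors were followed through 10 genes: Cd3d, Cd3e, Cd3g, Cd247, Cd8a, Cd8b1, Cd4, Lck, Zap70 and Cd5. They were taken by name, and they and the gene lists used further on were chosen with earlier results of these data known. All 10 were among the 21959 genes listed for each of 16 mice. All 10 also passed the filter on low counts, which kept 13968 genes for testing. The genes of the TCR α, β, γ and δ constant regions were not analysed here.

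The RNA came from tumor tissue of wild-type male C57BL/6 mice, 6 weeks old, whose livers were seeded with MC38 cells through an injection into the inferior hemispleen. MC38 is a mouse colon adenocarcinoma line, and every group, the controls included, carried these tumors. The controls received PBS, and the other groups received SB525334 (20 mg/kg, daily, by oral gavage in CMC-Na), KN046 (10 mg/kg, intraperitoneal, 2 times a week) or both, called the combination here. SB525334 inhibits the TGF-β receptor I kinase (ALK5), and KN046 is a bispecific antibody against PD-L1 and CTLA-4. Each group held 4 mice, and the comparisons ask whether TGF-β receptor inhibition changes the tumor response to checkpoint blockade.

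A T cell reads antigen through the clonal α and β chains of its receptor, which have no signaling tail of their own. The CD3 γ, δ and ε chains and the ζ chain carry the signal inward through immunoreceptor tyrosine-based activation motifs (ITAMs). The co-receptors CD4 and CD8 bind the MHC molecule and bring the kinase LCK to the ITAMs, the phosphorylated ITAMs recruit ZAP-70, and CD5 restrains the signal. In tumors these genes serve as a measure of infiltrating T cells, and in RNA of whole tissue fewer cells of a type and less RNA per cell cannot be told apart.

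The ITAM stretches are shown because they are what the CD3 and ζ chains have in common. Read from the GRCm39 genome with GENCODE M39 models, coding strand, 5′ to 3′, the 4 genes held 6 such stretches, 1 in each CD3 gene and 3 in Cd247, and the capitals mark the codons of the paired tyrosines.
Cd3d: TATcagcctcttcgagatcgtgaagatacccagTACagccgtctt
Cd3e: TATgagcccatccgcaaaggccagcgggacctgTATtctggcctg
Cd3g: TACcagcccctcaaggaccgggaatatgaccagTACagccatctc
Cd247 motif 1: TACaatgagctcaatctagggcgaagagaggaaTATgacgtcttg
Cd247 motif 2: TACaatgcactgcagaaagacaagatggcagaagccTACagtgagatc
Cd247 motif 3: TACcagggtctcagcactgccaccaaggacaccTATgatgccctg
Of these, 5 stretches were 45 bases long and the motif 2 stretch of Cd247 was 48. Every stretch was split by an intron. With that intron included, the stretches spanned chr9:44897393-44897609 for Cd3d, chr9:44910847-44911738 for Cd3e, chr9:44882033-44882566 for Cd3g, and chr1:165684020-165685023, chr1:165686042-165686829 and chr1:165687388-165688611 for Cd247.

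The tails of CD4 and of the CD8 α chain hold a pair of cysteines through which LCK is bound. The coding stretches around that pair are shown because they tie the co-receptors to the kinase, with the cysteine codons in capitals.
Cd8a: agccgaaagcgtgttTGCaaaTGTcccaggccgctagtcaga
Cd4: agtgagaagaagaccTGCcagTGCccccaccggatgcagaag
The Cd8a stretch lay at chr6:71352874-71353856 and the Cd4 stretch at chr6:124843226-124843595, each again split by an intron. No such pair of codons was found in the coding sequence of Cd8b1, which encodes the β chain of the CD8 heterodimer.

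The 3 CD3 genes lie side by side on chromosome 9 of GRCm39, within 40056 bases. Cd3g (44880870 to 44891735, minus strand) and Cd3d (44893083 to 44899173, plus strand) are arranged head to head, with 1348 bases between their starts, and Cd3e (44910037 to 44920925, minus strand) follows. Cd8b1 (71299772 to 71315087) and Cd8a (71350411 to 71356157), both on the plus strand, neighbor each other on chromosome 6, which also carries Cd4 (124841655 to 124874758, minus strand). Cd247 (165616250 to 165704846) and Zap70 (36800837 to 36821905) lie on the plus strand of chromosome 1, Lck (129442137 to 129467434) on the minus strand of chromosome 4, and Cd5 (10694480 to 10716366) on the minus strand of chromosome 19. All 10 are protein coding, and only Cd247 overlaps another listed gene, Pou2f1 on the opposite strand, so reads shared between those genes are uncertain where strand was not used in counting.

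Because Cd3d and Cd3g face each other, the 250 bases before each start (coding strand of each gene, GRCm39) are shown, with matches to the E-box letters CAGNTG and the ETS letters GGAAGT, on either strand, in capitals.
Cd3d, chr9:44892833-44893082: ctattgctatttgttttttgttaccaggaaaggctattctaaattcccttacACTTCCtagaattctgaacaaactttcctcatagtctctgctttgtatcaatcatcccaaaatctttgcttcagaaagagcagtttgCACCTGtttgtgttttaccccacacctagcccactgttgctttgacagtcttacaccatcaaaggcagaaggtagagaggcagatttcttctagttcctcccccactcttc
Cd3g, chr9:44891736-44891985: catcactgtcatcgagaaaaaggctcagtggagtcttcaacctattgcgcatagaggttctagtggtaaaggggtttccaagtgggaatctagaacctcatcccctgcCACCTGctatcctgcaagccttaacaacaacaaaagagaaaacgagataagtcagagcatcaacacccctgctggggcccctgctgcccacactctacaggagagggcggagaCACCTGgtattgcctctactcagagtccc
Over the same window of all 10 genes, GGAAGT was found before 7 (all but Cd3g, Cd8a and Zap70) against 19.0% of 21751 protein-coding genes, and CAGNTG before 6 against 43.0%. The RUNX letters TGTGGT stood before Lck only, against 13% of all genes, and TATAAA before none of the 10, against 11.9%. These matches describe letters and not bound sites.

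Total counts ran from 18368994 to 23877131 over the 16 mice, and levels below are CPM, counts scaled to a common library size with TMM factors. Several libraries or lists stood apart and touch the results below. Controls 1 and 2 resembled each other closely, as did controls 3 and 4 (median chi-square per gene of 1.25 and 0.956, against 2.82 or more for other pairs within a group), although 24.8% and 18.1% of genes still differed past the 95% point. They were kept as 4 samples, and nothing in the labels says whether they came from separate tumors, so p-values measure only the spread between these samples. A list of 12 hepatocyte genes took 1.43% to 1.52% of all counts in the control mice, 0.799% to 1.64% with KN046, 0.0368% to 0.183% with SB525334 and 0.00534% to 0.00696% with the combination. A list of 8 epithelial genes summed to 149.0 to 248.4 CPM in the controls, 123.3 to 201.3 with KN046, 36.8 to 50.8 with SB525334 and 6.77 to 16.4 with the combination. Whether this RNA came from tumor cells or from liver was not tested. Their most abundant gene, Krt8, lay at 54.3 to 111.2 CPM in the controls and at most 0.883 CPM with the combination, and Cdx2 and Krt20 had at most 4 counts in any mouse.

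**Figure D1:**
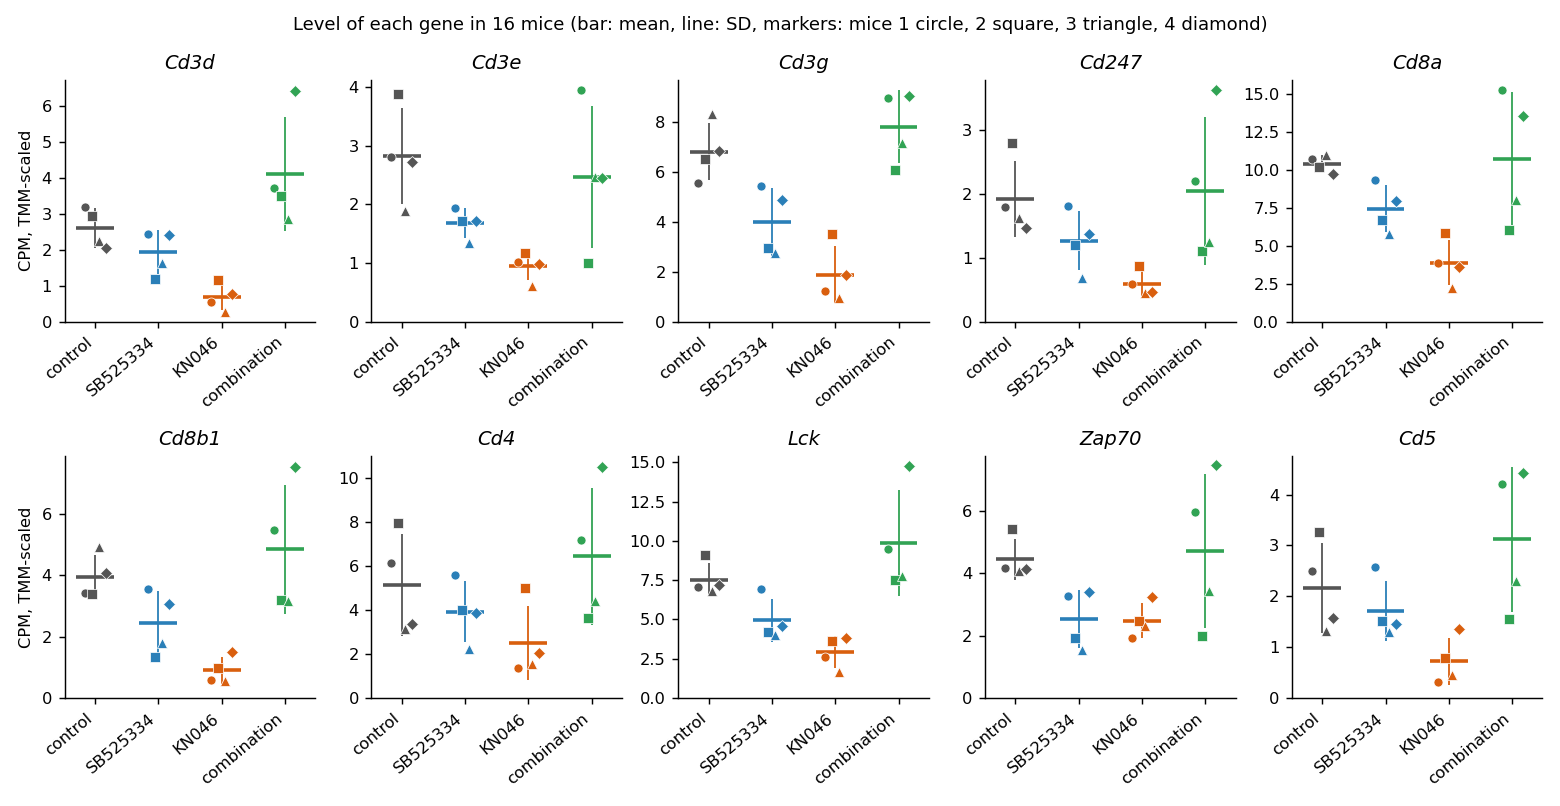
Level in CPM (TMM-scaled, linear axis from 0) of each of the 10 genes in the 16 mice, 4 per group, with marker shape for the mouse number, bars for group means and lines for 1 SD. The KN046 mean was the lowest for all 10 genes, and combination mice 1 and 4 stood above combination mice 2 and 3 for most genes.

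The group means ran in almost the same order for all genes. KN046 had the lowest mean for all 10 genes, SB525334 lay between KN046 and the controls for 10, and the combination had the highest mean for 9, the exception being Cd3e, which was highest in the controls. The threshold was a Benjamini-Hochberg adjusted p under 0.05 from edgeR, adjusted over every gene that was tested. By it, 7 of the 10 were lower with KN046 than in the controls, where 2.40% of all genes were lower. The combination was above KN046 for 9 of the 10, against 9.89% of all genes. With SB525334 against the controls 0 of the 10 were called, where 9.61% of all genes were, and with the combination against the controls 0 of the 10, where 11.1% were. At an unadjusted p under 0.05 these last counts were 4 and 0, against 18.9% and 22.1% of all genes, and DESeq2 called 0 in both. The comparisons share groups of mice and are not independent of each other.

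Neighboring groups in this order often overlapped from mouse to mouse. KN046 lay wholly below the controls for 8 genes, all but Cd4 and Cd5, against 6.65% of all genes. SB525334 lay wholly below the controls for 3 genes (Cd3g, Cd8a and Zap70), against 13.3%, and wholly above KN046 for 3 (Cd3d, Cd3e and Lck), against 9.42%. The combination lay wholly above KN046 for 7, all but Cd3e, Cd4 and Zap70, against 7.90%. Between the combination and the controls, the mice overlapped for all 10 genes, where 5.32% of all genes lay wholly above and 12.1% wholly below.

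Compared per length of annotated exon, Cd8a was the highest in the controls, at 2.86 ± 0.155 CPM per kilobase (SD, n = 4), followed by Lck at 2.40 ± 0.331, Cd3g at 2.08 ± 0.349 and Cd8b1 at 1.79 ± 0.324. Zap70, Cd4 and Cd3d lay between 1.0 and 1.24 CPM per kilobase, and Cd3e, Cd5 and Cd247 between 0.326 and 0.691. These are low levels, which rest on few reads. The lowest count of all was 5, for Cd3d in KN046 mouse 3, with an exact 95% Poisson interval of 1.62 to 11.7 that covers counting error only, and the highest was 313, for Lck.

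Cd3d, the δ chain, stood at 3.19, 2.93, 2.23 and 2.04 CPM in control mice 1 to 4, at 2.44, 1.19, 1.64 and 2.41 with SB525334, at 0.533, 1.17, 0.279 and 0.779 with KN046 and at 3.70, 3.48, 2.84 and 6.41 in the combination mice. No KN046 mouse reached any mouse of the other groups, and combination mouse 4 stood alone at the top. The level fell 3.72-fold with KN046 (log2 -1.89, standard error 0.39, adjusted p = 0.0237 in edgeR). It was 5.87-fold higher with the combination than with KN046 (log2 2.55, standard error 0.39, adjusted p = 0.00011 from edgeR), the largest difference of the 10 in that comparison.

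Cd3g, the γ chain, had 5.55, 6.53, 8.32 and 6.85 CPM in the controls, 5.42, 2.95, 2.75 and 4.87 with SB525334, 1.23, 3.50, 0.95 and 1.87 with KN046, and 8.99, 6.07, 7.15 and 9.05 in the combination mice. Here the combination mice lay close together, and every mouse given a single drug lay below them. Cd3g fell 3.58-fold with KN046 (log2 -1.84, standard error 0.34, adjusted p = 0.0166 from edgeR) and was 4.11-fold higher with the combination than with KN046 (log2 2.04, standard error 0.34, adjusted p = 2.7e-04).

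Cd3e, the ε chain, was measured at 2.80, 3.88, 1.88 and 2.72 CPM in the controls, 1.94, 1.71, 1.33 and 1.72 with SB525334, 1.01, 1.17, 0.615 and 0.987 with KN046, and 3.95, 0.993, 2.46 and 2.45 in the combination mice. Combination mouse 2 fell into the KN046 range, which it did for no other CD3 gene. Cd3e fell by 1.57 on the log2 scale with KN046 (standard error 0.37, adjusted p = 0.0315 from edgeR) and was higher by 1.37 with the combination than with KN046 (standard error 0.37, adjusted p = 0.0127).

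Cd247, which encodes the ζ chain with its 3 ITAMs and is also used by natural killer (NK) cells, had 1.79, 2.79, 1.62 and 1.46 CPM in the controls, 1.81, 1.19, 0.689 and 1.38 with SB525334, 0.586, 0.875, 0.447 and 0.468 with KN046, and 2.21, 1.10, 1.26 and 3.63 in the combination mice. KN046 mice were again below every control, while combination mice 2 and 3 lay between those groups. The log2 fold change was -1.68 with KN046 (standard error 0.43, adjusted p = 0.0412 in edgeR) and 1.78 between the combination and KN046 (standard error 0.43, adjusted p = 0.00669).

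Of the co-receptors, Cd8a, the CD8 α chain, which some dendritic cells also carry, was the most abundant. It had 10.7, 10.2, 11 and 9.72 CPM in the controls, 9.36, 6.73, 5.81 and 7.93 with SB525334, 3.84, 5.83, 2.24 and 3.58 with KN046, and 15.3, 6.07, 8.02 and 13.6 in the combination mice. The combination mice split around the controls, mice 1 and 4 above all of them and mice 2 and 3 below. Cd8a fell 2.68-fold with KN046 (log2 -1.42, standard error 0.29, adjusted p = 0.0237 from edgeR) and was 2.77-fold higher with the combination than with KN046 (log2 1.47, standard error 0.29, adjusted p = 0.00152).

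Cd8b1, whose chain marks conventional CD8+ T cells, showed the deepest fall of the 10 with KN046. It had 3.41, 3.41, 4.92 and 4.08 CPM in the controls, 3.57, 1.35, 1.81 and 3.06 with SB525334, 0.586, 0.972, 0.559 and 1.51 with KN046, and 5.49, 3.20, 3.17 and 7.54 in the combination mice. Every KN046 mouse was below every control and every combination mouse, and the range of SB525334 reached from the KN046 mice into the controls. The fall was 4.32-fold (log2 -2.11, standard error 0.40, adjusted p = 0.0166 from edgeR), and the combination was 5.32-fold above KN046 (log2 2.41, standard error 0.40, adjusted p = 2.4e-04).

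Cd4, the co-receptor for MHC class II, had the widest relative spread of the 10 among the controls (SD 45.0% of the mean), with 6.12, 7.95, 3.14 and 3.34 CPM, the similar mice 1 and 2 being high and mice 3 and 4 low. The values were 5.61, 3.98, 2.24 and 3.88 CPM with SB525334, 1.39, 5.01, 1.56 and 2.03 with KN046, and 7.19, 3.64, 4.42 and 10.5 in the combination mice. KN046 mouse 2 lay within the control range and the other KN046 mice below it. The log2 fold change with KN046 was -1.04 (95% interval -1.98 to -0.09, adjusted p = 0.177 from edgeR), which did not pass the threshold. Between the combination and KN046 it was 1.36 (standard error 0.45, adjusted p = 0.0356 from edgeR).

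Lck, the kinase that phosphorylates the ITAMs, had 7.09, 9.09, 6.80 and 7.21 CPM in the controls, 6.96, 4.22, 4.0 and 4.61 with SB525334, 2.61, 3.65, 1.68 and 3.84 with KN046, and 9.50, 7.50, 7.75 and 14.8 in the combination mice. All combination mice were above all mice given SB525334 alone, and those were above all KN046 mice. Lck fell 2.55-fold with KN046 (log2 -1.35, standard error 0.28, adjusted p = 0.0237 from edgeR) and was 3.35-fold higher with the combination than with KN046 (log2 1.74, standard error 0.28, adjusted p = 1.9e-04).

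Zap70, the kinase that docks on phosphorylated ITAMs in T and NK cells, passed the threshold in no comparison in edgeR. It had 4.16, 5.40, 4.06 and 4.13 CPM in the controls, 3.25, 1.91, 1.55 and 3.40 with SB525334, 1.92, 2.48, 2.29 and 3.22 with KN046, and 5.96, 1.99, 3.44 and 7.45 in the combination mice. The groups given a single drug covered nearly the same range, both below the controls, and combination mouse 2 lay within it. The log2 fold change was -0.81 with SB525334 (95% interval -1.55 to -0.07, adjusted p = 0.209 from edgeR), -0.84 with KN046 (-1.59 to -0.09, adjusted p = 0.171) and 0.93 between the combination and KN046 (0.18 to 1.68, adjusted p = 0.0648), with the intervals of the falls just short of 0. In DESeq2 it passed for the combination against KN046 (adjusted p = 0.0409) and for the interaction (adjusted p = 0.0158). In edgeR without combination mouse 2 it also passed for both (adjusted p = 0.0171 and 0.0151).

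Cd5, the inhibitory receptor of T cells that some B cells also carry, had 2.49, 3.27, 1.32 and 1.57 CPM in the controls, 2.58, 1.51, 1.29 and 1.46 with SB525334, 0.320, 0.778, 0.447 and 1.35 with KN046, and 4.21, 1.54, 2.29 and 4.43 in the combination mice. As for Cd4, control mice 3 and 4 were the low pair, and KN046 mouse 4 reached them. The log2 fold change of -1.57 with KN046 (95% interval -2.55 to -0.59) had an adjusted p of 0.0655 from edgeR, and among the settings that kept all 16 mice it passed the threshold only in DESeq2 (adjusted p = 0.0183) and with the leukocyte scaling described further on. Between the combination and KN046, Cd5 was 4.28-fold higher (log2 2.10, standard error 0.46, adjusted p = 0.00348 from edgeR).

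**Figure D2:**
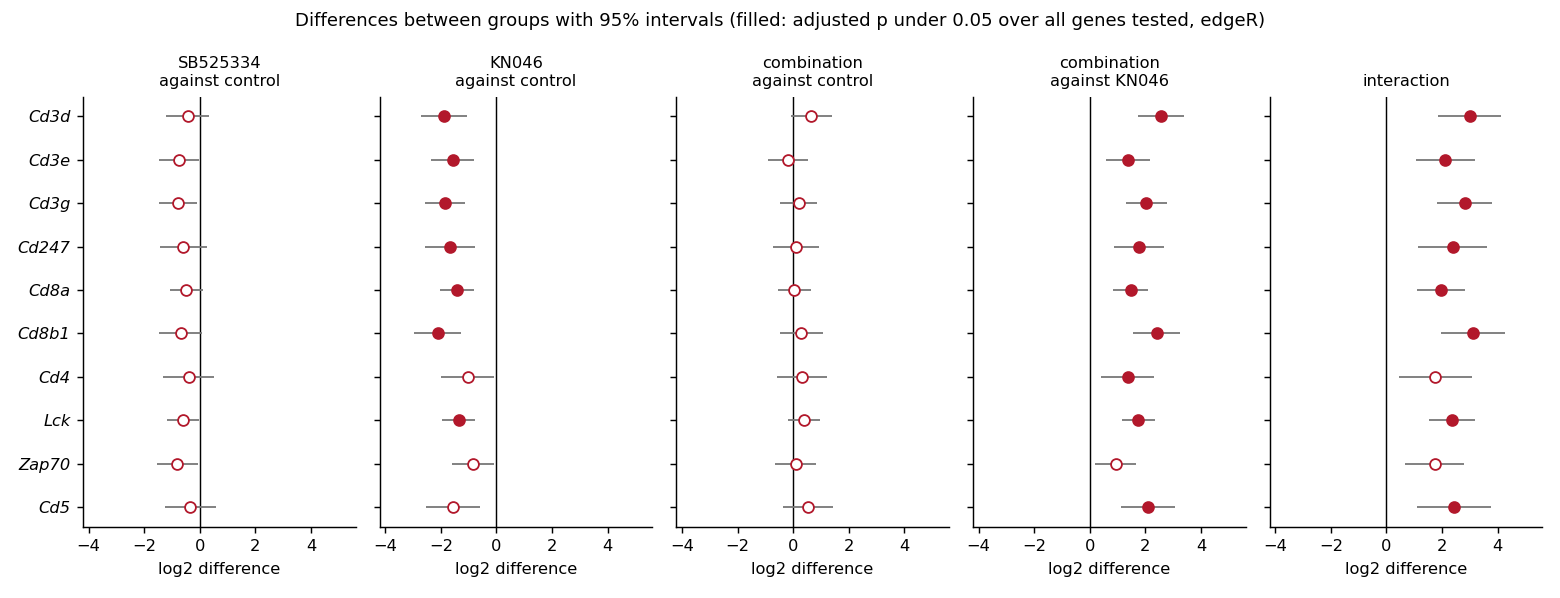
Log2 difference (points) and 95% interval (lines) from edgeR for the 10 genes in 4 comparisons between groups and in the interaction, with filled points for an adjusted p under 0.05. With KN046 7 points were filled, all below 0, between the combination and KN046 9 were filled, all above 0, and with SB525334 or the combination against the controls none was.

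For the question of whether TGF-β receptor inhibition changed these genes by itself, SB525334 against the controls gave log2 fold changes from -0.81 to -0.34 with a median of -0.60, where the median of all genes was 0.00059. The genes at an unadjusted p under 0.05 were Cd3e, Cd3g, Lck and Zap70, with adjusted p from 0.188 to 0.254 in edgeR. None of these falls passed the threshold, and what size of fall could have been detected was not tested. For Cd8a the 95% interval ran from -1.08 to 0.11 and for Cd4 from -1.31 to 0.52.

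KN046 against the controls gave a median log2 fold change of -1.57 over the 10 genes, against -0.03 over all genes, and all 10 had an unadjusted p under 0.05, where 23.1% of all genes did. These calls depended on single mice and on how the controls were counted. With each similar control pair summed to 1 sample, 0 of the 10 and 0 of all 14241 genes were called, with the fold changes nearly the same (Cd8b1 -2.12, adjusted p = 0.171 from edgeR). Without KN046 mouse 1 also 0 of the 10 were called (Cd8b1 -1.95, adjusted p = 0.0674 from edgeR), when 21 genes of all were, without KN046 mouse 3 only 1, without one of the controls 2 to 4, and with the 8 mice of the comparison fitted alone 2, Cd8a and Cd8b1.

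The combination against the controls, which share these mice with the comparisons above, gave log2 fold changes from -0.19 for Cd3e to 0.66 for Cd3d with a median of 0.25. The intervals bound what could have been missed. For Cd8a the 95% interval ran from -0.55 to 0.64, for Cd8b1 from -0.46 to 1.06, for Cd4 from -0.58 to 1.23 and for Cd3d, the highest, from -0.09 to 1.41. For 5 genes (Cd3e, Cd247, Cd8a, Cd4 and Zap70) the sign changed when some single mouse was left out, and for the other 5 it did not. Without combination mouse 4 the log2 difference of Cd8a was -0.08 and that of Cd247 -0.32, while Cd3d stood at 0.37.

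Against SB525334 alone, adding KN046 gave log2 differences from 0.53 for Cd8a to 1.10 for Cd3d, with a median of 0.88. In the main edgeR fit 0 of the 10 passed the adjusted threshold, where 3.57% of all genes did. An unadjusted p under 0.05 was reached by 5 (Cd3d, Cd3g, Cd8b1, Lck and Zap70), and by 9.19% of all genes. Lck was the nearest, with a log2 difference of 1.0 (95% interval 0.43 to 1.57, adjusted p = 0.0510 from edgeR), and was called in DESeq2. The combination mice lay wholly above the SB525334 mice for Cd3d, Cd3g and Lck, 3 of 10 genes against 2.43% of all genes.

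Whether SB525334 acted differently with and without KN046 was tested as an interaction, the log2 difference made by SB525334 on top of KN046 minus that made by SB525334 alone. It was above 0 for all 10 genes, with a median of 2.36, and 8 of the 10 passed the threshold in edgeR, where 1.73% of all genes did so in that direction. The largest was Cd8b1 at 3.10 (standard error 0.54, adjusted p = 0.0024 from edgeR) and the smallest called was Cd8a at 1.95 (standard error 0.41, adjusted p = 0.00916). Cd4 at 1.75 (standard error 0.62, adjusted p = 0.143) and Zap70 at 1.74 (standard error 0.50, adjusted p = 0.0608) did not pass in the main edgeR fit. The count was 5 with the control pairs summed, and 5 without control mouse 2 or KN046 mouse 3.

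Ratios between the genes within a mouse, which do not depend on scaling, overlapped between the groups compared in all but 3 cases, given below. Cd8a to Cd4 counts ranged from 1.29 to 3.50 in the controls, 1.67 to 2.60 with SB525334, 1.17 to 2.77 with KN046 and 1.29 to 2.13 in the combination mice, so the balance of the co-receptors showed no separation of the groups. The Cd8b1 to Cd8a ratio was 0.153, 0.167, 0.25 and 0.420 in the KN046 mice and 0.359 to 0.556 with the combination, where only KN046 mouse 4 entered the combination range. The Zap70 to Lck ratio separated KN046 from the controls and from the combination, at 0.572 to 0.597 in the controls, 0.680 to 1.37 with KN046 and 0.265 to 0.627 in the combination mice. Cd5 to Cd3e was 0.577 to 0.891 in the controls and 0.933 to 1.81 with the combination. No ratio was tested, and many ratios were examined in every pair of groups. With 4 mice per group some would separate by chance alone, so these are descriptions only.

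The levels of the 10 genes were correlated from mouse to mouse. Over the 16 mice the 45 pairs had a median Pearson r of 0.842 on log2(CPM + 1), from 0.693 for Cd3d with Zap70 to 0.954 for Cd3d with Lck, and with the group means removed the median was 0.704. These points share 4 groups, a common scaling and the same libraries. Combination mouse 4 was the highest of all 16 mice for 8 genes and combination mouse 1 for the other 2, while KN046 mouse 3 was the lowest for 7. SB525334 mouse 1 was the highest of its group for 9 genes. Among 12829 other genes with a mean of at least 1 CPM, those most like the mean z-score of the 10 over 16 mice included Gbp2 and Tbx21 (both r = 0.962), Gbp5 (0.961), Tvp23a (0.956), Gm4841 (0.952), Nkg7 (0.951), Pdcd1 (0.949), Gm12185 (0.948) and Klrc1 (0.948). Gbp2, an interferon-induced GTPase, had group means of 150.3 CPM in the controls, 72.6 with SB525334, 34.0 with KN046 and 185.6 in the combination mice.

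Downstream of the receptor, 35 of 37 listed signaling genes were tested. The summed level of the list overlapped between all groups, at 985.7 to 1122.1 CPM in the controls and 934.1 to 1076.5 with KN046. Some of these genes, such as Csk with group means of 136.1 to 203.4 CPM, stood far above the 10 receptor genes. Which cells this RNA came from was not tested. With KN046 5 of the 35 were lower and 2 higher than in the controls, against 2.40% and 1.60% of all genes, with a median log2 fold change of -0.71. Lat, the adaptor that ZAP-70 phosphorylates, fell from a mean of 2.91 to 0.814 CPM (log2 -1.83, adjusted p = 0.017 from edgeR), and the adaptor gene Lcp2, for SLP-76, fell by 1.04. Ptpn6, the phosphatase SHP-1 of many leukocytes, fell by 1.2, while Nfatc2, a transcription factor of the calcium pathway, rose by 1.12 (adjusted p = 0.0313 from edgeR). Between the combination and KN046 17 were higher and 3 lower, against 9.89% and 14.5% of all genes, led by Lat (log2 2.13, adjusted p = 2.1e-04 from edgeR), Csk, the kinase that restrains LCK and the most abundant of the list (0.58), and Nck1 (0.63), with the adaptor Fyb1 lower (-0.95). In the interaction 5 were called, all above 0, against 1.73% of all genes, with Lat at 2.81, Ptpn6 at 1.30 and Prkcq, the protein kinase C form θ, at 2.09. With SB525334 or the combination against the controls 0 of the 35 were called (4 and 2 at an unadjusted p under 0.05, where 18.9% and 22.1% of all genes were).

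Of 14 tested co-stimulatory and cytokine receptor genes, 4 were lower with KN046 than in the controls and 8 were higher with the combination than with KN046, against 2.40% and 9.89% of all genes. Cd27 fell by 1.82, Slamf1 by 2.66, Cd226 by 2.2 and Il2ra, the IL-2 receptor α chain, by 2.30 on the log2 scale with KN046. Cd2, a T cell adhesion receptor, was higher by 1.62 with the combination than with KN046 (adjusted p = 0.00277 from edgeR), and Tnfrsf9, the co-stimulatory receptor 4-1BB and the most abundant of the list, by 0.96. In the interaction 6 of the 14 were called, all above 0, against 1.73% of all genes. Of 13 T lineage transcription factors, Bcl11b, required for T cell identity, fell from 1.93 to 0.206 CPM with KN046 (log2 -3.18, adjusted p = 0.00504 from edgeR), and Tbx21, the T-bet gene, from 2.00 to 0.504 (log2 -1.97, adjusted p = 0.0166). These were the 2 of 13 called lower with KN046, against 2.40% of all genes, and 11 of the 13 lay below 0. The combination was above KN046 for Bcl11b and Tbx21, by 3.04 and 2.16, and for Gata3 and Ikzf1, by 0.73 and 0.75. Those were 4 of 13, against 9.89% of all genes, and 3 of the 13 lay below 0 in that comparison. With SB525334 against the controls 2 of the 13 fell, where 9.22% of all genes did, Tox by 1.45 and Satb1 by 1.51 (adjusted p = 0.0253 and 0.0475 from edgeR). Ets1, the most abundant gene of this list, had a mean of 161.2 CPM, against 8.12 CPM for Cd8a, the most abundant of the 10 receptor genes before length is taken into account.

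**Figure D3:**
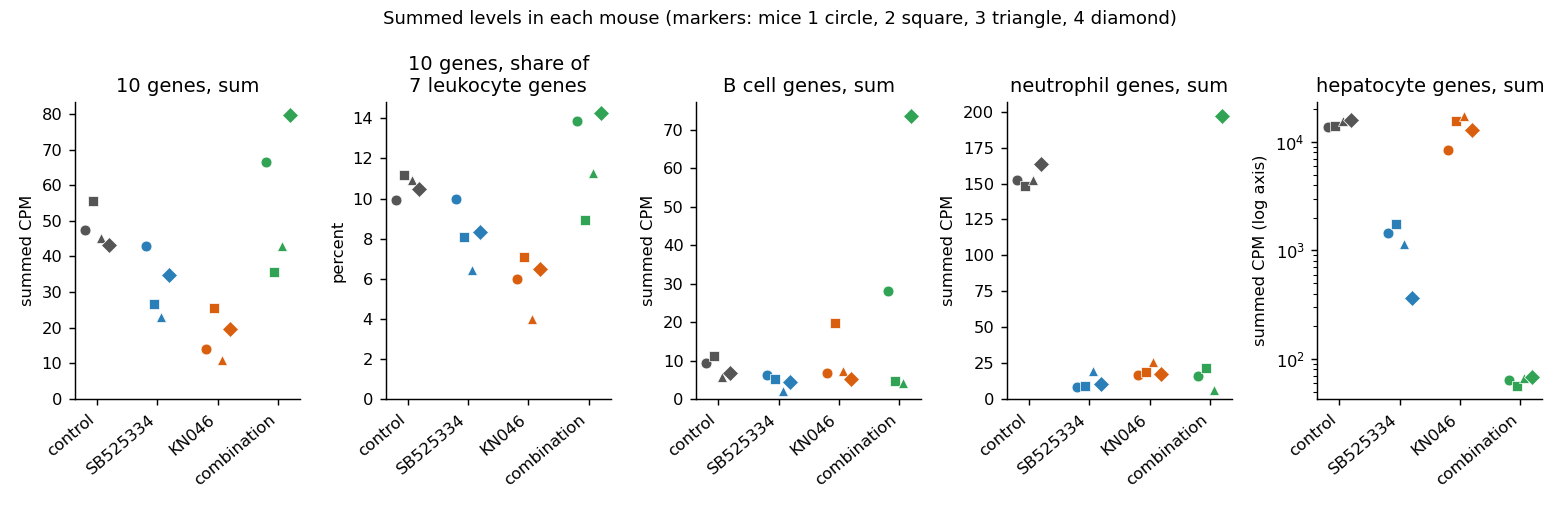
Summed CPM of the 10 genes, their sum as a percent of 7 leukocyte genes, and summed CPM of B cell, neutrophil and hepatocyte genes (log axis for the last) in each of the 16 mice. The share of the leukocyte sum was 3.98% to 7.11% with KN046, below the 9.91% to 11.2% of the controls, and combination mouse 4 stood apart for B cell and neutrophil genes.

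Set against leukocytes as a whole, the 10 genes kept the same order. The summed level of 7 pan-leukocyte genes was 411 to 497 CPM in the controls, 332 to 431 with SB525334, 235 to 358 with KN046 and 379 to 559 in the combination mice, and 3 of the 7 were themselves lower with KN046 than in the controls in edgeR. As a percent of that sum, the 10 genes made up 9.91% to 11.2% in the controls, 6.43% to 9.97% with SB525334, 3.98% to 7.11% with KN046 and 8.94% to 14.3% in the combination mice. With libraries scaled by those 7 genes, an alternative added once the data were known, 8 of the 10 were lower with KN046 than in the controls. The combination was above KN046 for 7, where 146 of all 13968 genes were higher and 8127 lower. The fold changes shrank, that of Cd8a with KN046 from -1.42 to -0.82 and that of Cd8b1 from -2.11 to -1.53. This scaling moved the median of all genes for KN046 against the controls from -0.03 to 0.61. With it 7754 genes were higher and 177 lower, against 224 and 335 with TMM. Such a scaling shifts all genes by nearly the same amount. The distance of the receptor genes from the median gene is therefore kept by construction and says nothing about leukocyte content.

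Genes of other cells moved with some of these differences, and their part in the results was not tested. The 9 B cell genes summed to 28.1 CPM in combination mouse 1 and 73.6 in combination mouse 4, the mice with the highest receptor levels, against 4.2 and 4.6 in the other combination mice and 2.19 to 19.6 elsewhere. The 8 neutrophil genes summed to 197.0 CPM in combination mouse 4 and 148.0 to 163.5 in the controls, against 6.0 to 26.0 in all other mice. Without combination mice 1 and 4, an alternative likewise added once the data were known, the combination was above KN046 for 5 of the 10 genes (Cd3d, Cd3g, Cd8a, Cd8b1 and Lck) and the interaction was called for 4 (Cd3d, Cd3g, Cd8b1 and Lck). Of all 14284 genes in that fit, 1337 were higher with the combination than with KN046 and 53 were called above 0 in the interaction. The log2 differences then were 2.17 for Cd3d, 1.80 for Cd8b1 and 0.86 for Cd8a between the combination and KN046. The sum of all 8 NK cell genes, mostly Klra4, overlapped between all groups (45.1 to 67.0 CPM with KN046, 43.8 to 48.3 in the controls). Of these 8 genes 4 were tested, and 3 of the 4 lay below 0 with KN046, with a median log2 fold change of -0.78. Only 1 was called, Klre1, singled out once its value was known, which fell with KN046 by 2.21 on the log2 scale (adjusted p = 0.0334 from edgeR). With SB525334 3 of the 4 likewise lay below the controls, with a median log2 fold change of -0.94, and 1 was called lower. Of all genes, 2.40% were called lower with KN046 and 9.22% with SB525334. The 7 genes of the dendritic cells that also carry Cd8a summed to 95.5 to 129.5 CPM in the controls and 48.0 to 93.7 with KN046. The sum was 68.1 to 97.1 CPM with SB525334 and 73.2 to 114.6 in the combination mice, with Irf8 the most abundant gene. With KN046 1 of the 7 was called lower than in the controls, against 2.40% of all genes. With the combination all 7 also lay below the controls, with 0 called. The 5 thymocyte genes summed to 15.4 to 21.3 CPM in the controls, 5.04 to 9.24 with SB525334, 11 to 20.6 with KN046 and 4.86 to 5.73 in the combination mice, most of it Cd1d1, which other cells also express. Among them Dntt had 8 to 18 counts in each control and 0 to 2 with SB525334. It had 0, 14, 0 and 1 in KN046 mice 1 to 4 and 0, 0, 0 and 7 in the combination mice. Rag1 and Rag2 had at most 2 counts in any mouse. The hepatocyte genes overlapped between KN046 and the controls and were lowest with the combination. Their sum was 8471 to 17423 CPM with KN046 and 56.8 to 68.6 in the combination mice. The part of that difference in the receptor results was not tested.

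**Figure D4:**
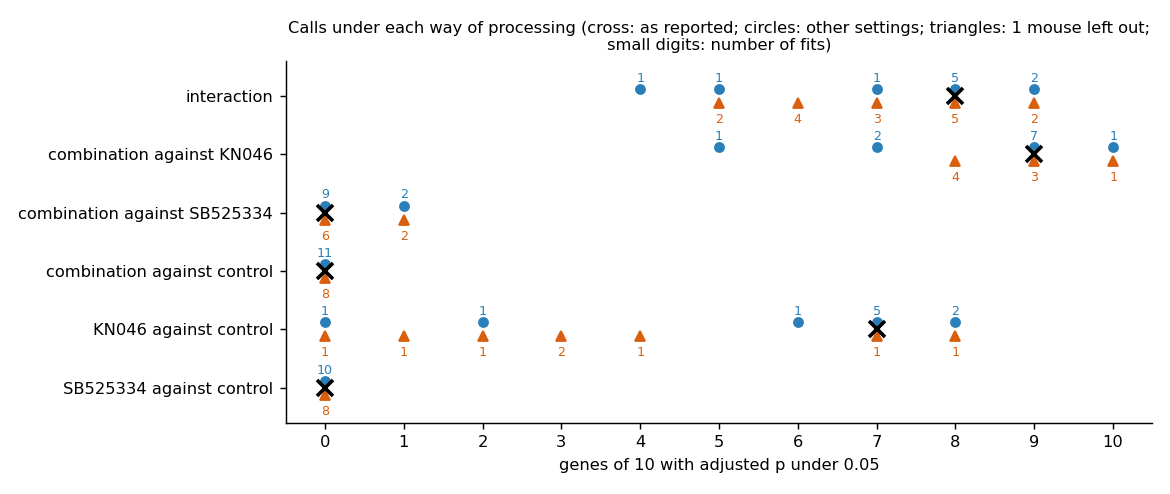
Number of the 10 genes with an adjusted p under 0.05 in each comparison, as reported (crosses), under other settings (circles) and with 1 mouse left out (triangles), with the number of fits beside each point. Calls with KN046 against the controls spread from 0 to 8, whereas those of the combination against KN046 stayed between 5 and 10.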

How the data were processed

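Total RNA of tumor tissue was sequenced as mRNA libraries on an Illumina HiSeq instrument. According to the methods and the submitters' processing notes, trimming by the authors used cutadapt 2.7, alignment to the GRCm39 build used HISAT2 2.2.1, and the authors made the deposited counts per gene with HTSeq 2.0.4. The strand and multi-mapping settings are not given in the sources used here. The deposited normalized values (from DESeq2 1.38.3) were not used.

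Raw counts of all 16 mice were fitted in 1 model of group means with edgeR 4.0.16 (R 4.3.3), using TMM factors, filterByExpr with a minimum count of 10, and the quasi-likelihood F test. P-values were adjusted by Benjamini-Hochberg over 13968 genes, at a threshold of 0.05. Standard errors were taken from the F statistic and 95% intervals from its t quantile. The code was tested on simulated counts. DESeq2 1.42.0, other scalings and filters, a replicate block, summed control pairs and leaving out mice were the alternatives.

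The 10 genes and the gene lists were chosen with earlier results of these data known. Of each T cell list, at most 4 genes past the threshold per comparison, those of smallest adjusted p, and the gene of highest mean CPM were named. A few genes that these rules name are not reported here. Symbols and sequences came from GENCODE M39 on GRCm39, with the APPRIS principal transcript for coding stretches.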

Additional observations from a re-analysis of the deposited data

Results flagged for a closer look

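Among 40 sets of 4 mice (10 genes in 4 groups), 1 mouse stood apart from the rest of its group by Dixon's criterion, where chance gives about 2. It was control mouse 2 for Zap70, at 5.3958 CPM, while the other controls lay between 4.06 and 4.16 CPM.

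For 8 genes the log2 difference made by SB525334 differed with and without KN046 in the edgeR interaction test. The interaction was 3.103 for Cd8b1, 2.993 for Cd3d, 2.807 for Cd3g, 2.437 for Cd5, 2.375 for Cd247, 2.352 for Lck, 2.122 for Cd3e and 1.951 for Cd8a on the log2 scale. For each of these genes the mean was lower with SB525334 than in the controls, and higher with the combination than with KN046.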

How the results depend on the processing

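Of 1190 repeats of the 60 log2 differences under other settings, 1075 kept their sign and their side of the threshold, 81 lost the call, 15 gained one and 19 changed sign. SB525334 and the combination against the controls gave 0 calls among the 10 genes in every setting run. KN046 against the controls gave 2 calls in place of 7 when only those groups were fitted and 0 with control pairs summed, and the interaction gave 5 in place of 8 with control pairs summed. DESeq2 gave 1 call, Lck, for the combination against SB525334. Without combination mice 1 and 4, the combination against KN046 gave 5 calls in place of 9 and the interaction 4. Some of those fits also held fewer samples, and the cause of the changes was not tested.

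Leaving out 1 mouse gave 0 to 8 calls for KN046 against the controls, with 0 without KN046 mouse 1 and 1 without KN046 mouse 3. It gave 5 to 9 for the interaction, 0 to 1 for the combination against SB525334 and 8 to 10 for the combination against KN046.

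Replicate numbers are shared between groups, but same-numbered mice did not deviate together (median r of 0.0257 over 24 pairs, from -0.37 to 0.407), so the numbers were not taken to pair the mice. With the replicate block the combination against SB525334 gave 1 call in place of 0, the interaction gained Zap70 (adjusted p = 0.04996 from edgeR, 9 calls in place of 8), and in the combination against the controls Cd8a stood at -0.0093 and Zap70 at -0.0319 on the log2 scale.

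All 19 changes of sign were in comparisons of the combination with the controls or SB525334, where none of the 10 genes was called. For the combination against the controls, leaving out 1 mouse gave ranges of -0.491 to 0.0758 for Cd3e, -0.322 to 0.336 for Cd247, -0.147 to 0.251 for Cd8a, -0.00897 to 0.613 for Cd4 and -0.213 to 0.353 for Zap70 on the log2 scale. With the leukocyte scaling Cd8a stood at -0.0037. Without combination mice 1 and 4, the log2 differences from the controls were -0.039 for Cd3g, -0.694 for Cd247, -0.559 for Cd8a, -0.308 for Cd8b1, -0.346 for Cd4, -0.702 for Zap70 and -0.168 for Cd5, and those from SB525334 were -0.106 for Cd247 and -0.0852 for Cd8a.

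Depth limits the low genes most, since Cd3d rested on 5 counts in 1 mouse.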
